A study of Drosophila melanogaster with 6 samples.

Results

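The genes described here carry the sodium pump of the cell membrane and part of the potassium and chloride handling of astrocytes in the fly Drosophila melanogaster. They are Atpalpha, nrv1, nrv2, nrv3, Ncc69, kcc, Irk2 and Irk3, and they were taken by gene symbol from the deposited count table. All 8 symbols were found among its 16666 rows. The adult group had 4 libraries of astrocytes from adult brains, and the L3 group had 2 libraries of astrocytes from brains at the third larval instar. Both stages carried the same transgenes, UAS-mCD8::GFP, Alrm-Gal4 and UAS-RedStinger, so the sort took cells in which the Alrm driver was active, and no library came from flies without them. The labels give neither the age nor the sex of the adults. Each library held RNA from a pool of 1000 red fluorescent cells, and the labels do not say whether the pools came from separate animals. The p-values below therefore measure the spread between these libraries, which may be technical.

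The sodium pump uses ATP to carry sodium out of the cell and potassium into it. It is built from a catalytic alpha subunit and a glycosylated beta subunit that helps the alpha subunit reach the membrane. Cation-chloride cotransporters use the gradients that the pump makes, and inwardly rectifying potassium channels let potassium enter the cell more readily than leave it. Glia that lie around synapses are known for taking up the potassium that active neurons release, and the sodium gradient also drives their uptake of glutamate and GABA.

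In adult astrocytes 6 of the 8 genes were higher than at L3, 1 was lower and 1 was not called, by edgeR's quasi-likelihood test at an adjusted p of 0.05. Atpalpha, nrv2, Ncc69, kcc, Irk2 and Irk3 were higher and nrv1 was lower. All 8 genes passed the filter on low counts. Of all 9082 genes tested, 22.7% were called in either direction, 9.65% higher and 13.1% lower. The median log2 fold change, adult minus L3, was 1.99 over the 8 genes and -0.14 over all tested genes. The count of genes called higher was 2 with edgeR's earlier quasi-likelihood method, which called 5.74% of all tested genes higher. That count also fell without L3 library 1, as did the share of all tested genes called higher.

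For 4 of the 8 genes the table gave the same or nearly the same counts to a neighbouring row, so their values could belong to either gene. The counts of kcc were identical to those of SERCA, a calcium pump of the endoplasmic reticulum. The counts of Irk3 were identical to those of Grip71, a component of the gamma-tubulin ring. Those of Irk2 differed by 1 count in all from those of CG34289, and those of nrv1 by 4 counts from those of CG17378. In a current Ensembl annotation nrv1 and CG17378, kcc and SERCA, and Irk3 and Grip71 lie on opposite strands with converging 3′ ends, and Irk2 and CG34289 lie on the same strand. Whether counting used the strand is not given in the sources used here. Looser likeness was found for kcc with Galphas (28.01% of summed counts differing) and Orcokinin (29.2%), and for Irk3 with msl-1 (15.5%). Atpalpha, nrv2, nrv3 and Ncc69 shared counts with no gene within 10 rows, and 3 of these 4 were among the 6 called higher. Shared counts were common in the table: 58.5% of the 9900.0 genes with at least 30 counts had a neighbour with near-identical counts.

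**Figure D1:**
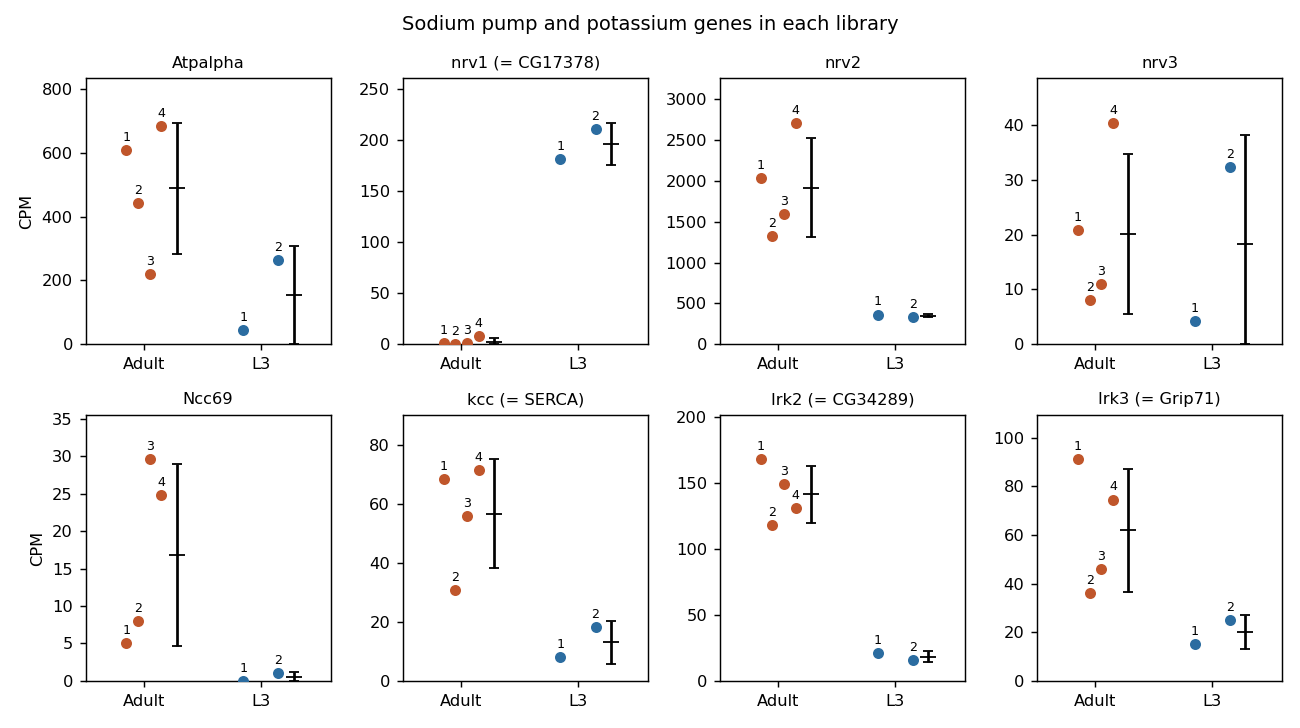
CPM (counts per 1000000) of the 8 genes in the 4 adult (orange) and 2 L3 (blue) libraries, with library numbers above the points. Bars give the mean and SD of each stage, cut at 0, each panel has its own linear axis from 0, and the symbol in brackets is a gene with the same or nearly the same counts. The stages overlap for Atpalpha and nrv3 and are apart for the other genes, with nrv1 alone higher at L3.

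The libraries held 745129 to 1287871 counts in adult and 2641671 and 1923097 counts in L3. CPM is the count of a gene per 1000000 counts of its library. The driver's gene alrm was at 1305 ± 264 CPM in adult (SD, n = 4) and 1103 ± 343 CPM in L3 (SD, n = 2), with an adjusted p of 0.634. Of 6 astrocyte markers, 4 were higher in adult and 1 was lower, and Gs2 was the most abundant of them. The shares over all tested genes were 9.65% higher and 13.1% lower. Among tested markers of other cells, those higher in adult were 1 of 2 pan-glial, 2 of 4 cortex glia, 1 of 2 ensheathing glia, 0 of 3 surface glia, 2 of 12 neuron, 2 of 4 photoreceptor, 1 of 1 hemocyte and 0 of 1 muscle genes, and 1 surface glia marker was lower. Their most abundant members were repo, Cyp4g15, CG9657, Tret1-1, Syx1A, inaD, Hml and Mlc2, of which repo and Hml were called. The counts of repo were identical to those of CG7156 and those of Mlc2 to those of CG31028, and those of inaD and Gs2 were nearly those of the ribosomal protein gene RpL23 and of Evi5. Hml had counts of its own, at 1278 ± 297 CPM in adult (SD, n = 4) and 32.3 ± 11.1 CPM in L3 (SD, n = 2). Its log2 fold change was 5.22 (edgeR adjusted p = 8.35e-08). The other hemocyte markers, NimC1, He and srp, were at 1.76, 1.37 and 5.75 CPM in adult and were too low for a test. The part of hemocyte RNA in the genes described here was not tested. With pools of cells, a change in the share of cells that use a gene and a change in RNA per cell cannot be told apart.

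Atpalpha encodes the catalytic alpha subunit of the pump, the part that binds ATP and moves the ions. It had 608, 443, 221 and 684 CPM in the 4 adult libraries, against 44.7 and 263 CPM in the 2 L3 libraries. The stages overlapped, because L3 library 2 lay above adult library 3. The means were 489 ± 205 CPM in adult (SD, n = 4) and 154 ± 154 CPM in L3 (SD, n = 2). The log2 fold change was 1.77 (SE 0.49, edgeR adjusted p = 0.0126). The size of the difference depended on the L3 library used: the log2 fold change was 1.06 without L3 library 1 and 3.29 without L3 library 2. The earlier quasi-likelihood method gave an adjusted p of 0.0907.

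The L3 libraries differed 5.88-fold in Atpalpha, with the higher value in library 2. In the neuron marker list, whose 13 genes include the pan-neuronal gene elav and the synaptic vesicle gene nSyb, the summed level was 348 to 527 CPM in the adult libraries and 152 and 280 CPM in L3 libraries 1 and 2. Of 12 tested neuron markers 2 were higher in adult, nSyb and Gad1, and 0 were lower, against 9.65% and 13.1% of all tested genes. The counts of Gad1 were identical to those of its neighbours wit and Faa. Syt1, VGlut, cac and fne of the list also shared counts with neighbours. No marker of the list was at 0 in every library of a stage. nSyb was at 36.2 to 77.6 CPM in adult and at 1.89 and 13.5 CPM in L3. Neurons also depend on Atpalpha, and the part of neuronal RNA in its difference was not tested. In L3 the library with more Atpalpha also had the higher marker sum, 1.85-fold, although Gad1 and the glutamate transporter gene VGlut in the list were lower there. Other lists moved the same way between these libraries, with sums 1.56-fold higher in L3 library 2 for astrocyte, 1.505-fold for cortex glia, 2.19-fold for ensheathing glia and 2.96-fold for muscle markers. Pan-glial markers were 1.03-fold higher, and the surface glia, photoreceptor and hemocyte sums were lower there. The photoreceptor sum was mostly inaD, at 1371 and 793 CPM in L3 libraries 1 and 2, with nearly the counts of RpL23. The photoreceptor markers ninaE, norpA and ninaC were higher in L3 library 2, and trp had no counts. In adult, library 2 had the highest neuron marker sum, 527 CPM against 514 CPM in library 4, and library 4 had the highest Atpalpha. The markers Syx1A, Syt1, VGlut, VAChT, para and cac were higher in adult library 2 than in adult library 4. The other neuron markers were higher in adult library 4, and elav, nSyb and brp were highest there and lowest in adult library 2. With only 2 L3 libraries, any 2 levels either share an order or reverse it, and no cause was drawn from these orders.

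**Figure D2:**
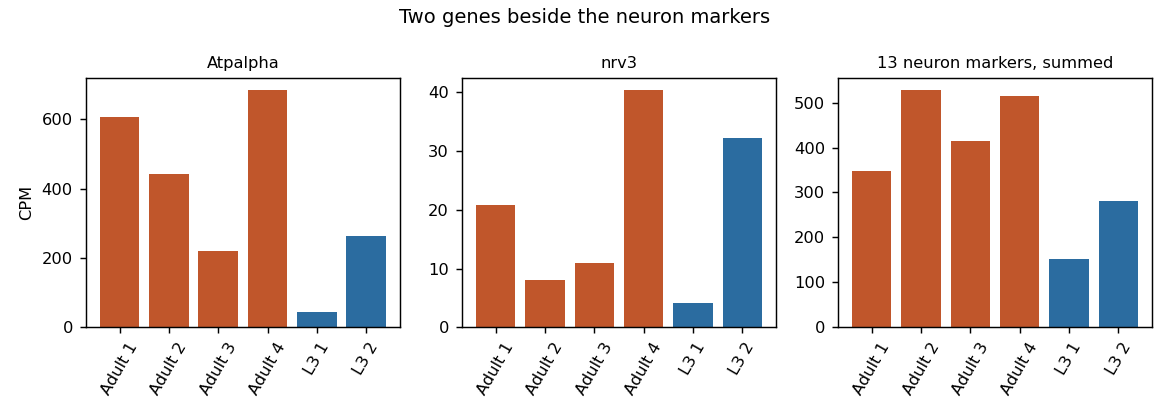
CPM of Atpalpha, of nrv3 and of 13 neuron markers summed, in each adult (orange) and L3 (blue) library, on linear axes from 0. L3 library 2 is above L3 library 1 in all 3 panels, and the marker sum is 348 to 527 CPM in adult libraries against 152 and 280 CPM in L3 libraries.

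The genes most like Atpalpha in their pattern were sought among 781 tested genes outside the lists, with a mean of at least 50 CPM and no shared counts. The measure was the root mean square difference of log2(CPM + 1) over the 6 libraries, after each gene was centred on its own mean. The closest were CG14613 at 0.11, CG14997 at 0.23 and Thd1 at 0.24. CG14613 had 160, 138, 59.2 and 177 CPM in the adult libraries, against 11.7 and 82.2 CPM in the L3 libraries. Like Atpalpha, it was lower in L3 library 1 than in L3 library 2, and lowest of the adult libraries in library 3. This likeness follows from the choice of the gene over the same 6 libraries. Among the other genes of the group, kcc (0.68) and Irk3 (0.71) were nearest to Atpalpha on this measure and nrv1 (4.10) was farthest.

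The rows of the beta subunit genes moved in different directions, and that of nrv1 had nearly the counts of CG17378. nrv2 encodes the beta subunit known from fly glia, where its regulatory region is used as a glial driver, and it also belongs to septate junctions of epithelia. It had 2034, 1322, 1591 and 2712 CPM in the adult libraries, against 364 and 337 CPM in the L3 libraries. All adult libraries lay above both L3 libraries, which were within 1.08-fold of each other. The means were 1915 ± 607 CPM in adult (SD, n = 4) and 350.4 ± 19.0 CPM in L3 (SD, n = 2). The adult level was higher by 2.41 on the log2 scale (SE 0.37, edgeR adjusted p = 5.98e-05), and nrv2 was called under all 16 alternatives tried, with log2 fold changes of 2.21 to 2.65.

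nrv1 encodes a second beta subunit, next to nrv2 in the genome. It had 0.835, 0, 1.10 and 7.76 CPM in the adult libraries, against 181 and 211 CPM in the L3 libraries. The adult values came from 1, 0, 1 and 10 counts, and the 0 in adult library 2 allows up to 4.03 CPM at a floor of 3 counts. The L3 values came from 479 and 405 counts. The means were 2.42 ± 3.59 CPM in adult (SD, n = 4) and 196 ± 20.7 CPM in L3 (SD, n = 2). The log2 fold change was -6.07 (SE 0.63, edgeR adjusted p = 1.15e-07). It was -7.97 without adult library 4, which held 10 of the 12 adult counts. The fall was called under all 16 alternatives, and it could belong to nrv1, to CG17378 or to both.

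nrv3 encodes the beta subunit known from the nervous system and from sense organs. It had 20.9, 8.05, 10.96 and 40.4 CPM in the adult libraries, against 4.16 and 32.2 CPM in the L3 libraries. The stages overlapped: L3 library 1 lay below every adult library, and L3 library 2 was exceeded by adult library 4 alone. The means were 20.1 ± 14.6 CPM in adult (SD, n = 4) and 18.2 ± 19.9 CPM in L3 (SD, n = 2). Their log2 fold change was 0.40 (SE 0.76, edgeR adjusted p = 0.756), so a difference in either direction of more than 2-fold lies within 2 SE. The direction turned with the library left out, at -0.40 without L3 library 1 and 2.21 without L3 library 2, and at -0.21 without adult library 4. The L3 libraries differed 7.74-fold, in the same direction as Atpalpha and as the neuron, astrocyte, cortex glia, ensheathing glia and muscle marker sums given above, whose part in nrv3 was not tested.

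**Figure D3:**
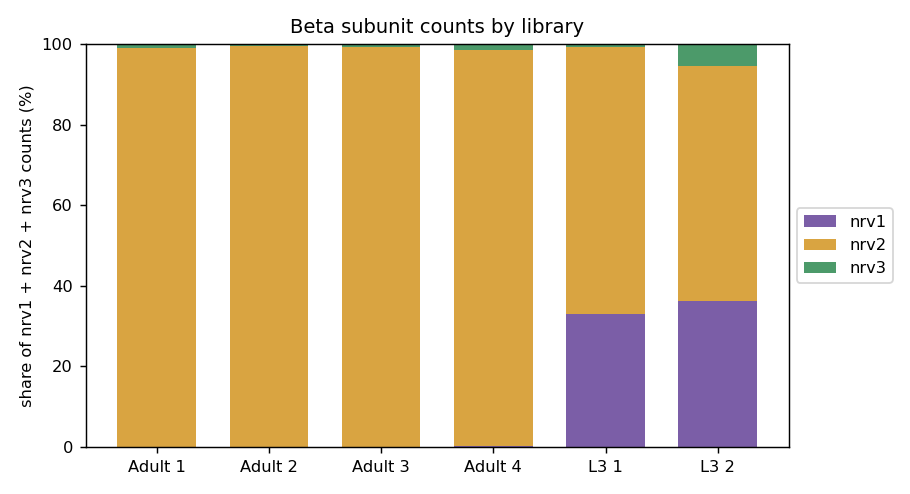
Share of the summed counts of nrv1, nrv2 and nrv3 taken by each gene, in percent, for each adult and L3 library. nrv1 takes 33.0% and 36.3% of the bars in L3 and at most 0.281% in adult, and its counts could as well belong to CG17378.

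Within a library the balance of the beta subunits does not depend on the scaling between libraries. The counts come from 3′ ends and were not divided by length, so only the change of a ratio between stages is compared. nrv1 made up 0.0406%, 0%, 0.0684% and 0.281% of the counts of the 3 beta genes in the adult libraries, against 33.0% and 36.3% in the L3 libraries. The highest adult value had an exact 95% binomial interval of 0.135% to 0.517%, and the lower L3 value one of 30.6% to 35.5%. These intervals cover counting error only. nrv2 made up 98.3% to 99.4% in adult and 66.2% and 58.1% in L3. These shares take the nrv1 row as nrv1, and its counts could as well belong to CG17378.

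The log2 ratio of nrv2 to nrv1 counts, with 0.5 added to each, averaged 9.98 ± 1.15 in adult (SD, n = 4) and 0.84 ± 0.23 in L3 (SD, n = 2), a difference of 9.14. A two-sided exact permutation test over the libraries gave p = 0.0667, the smallest value that 15 arrangements allow, and 0.0889 after adjustment over the 4 ratios tested. This ratio could as well be one of nrv2 to CG17378. The ratio of nrv2 to nrv3 averaged 6.75 ± 0.54 in adult and 4.88 ± 2.13 in L3, and its difference of 1.87 had an exact permutation p of 0.133. In L3 library 1 that ratio, 6.39, lay within the adult range of 6.06 to 7.24, and in L3 library 2 it was 3.38. The difference was 0.36 without L3 library 2 and 3.37 without L3 library 1.

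**Figure D4:**
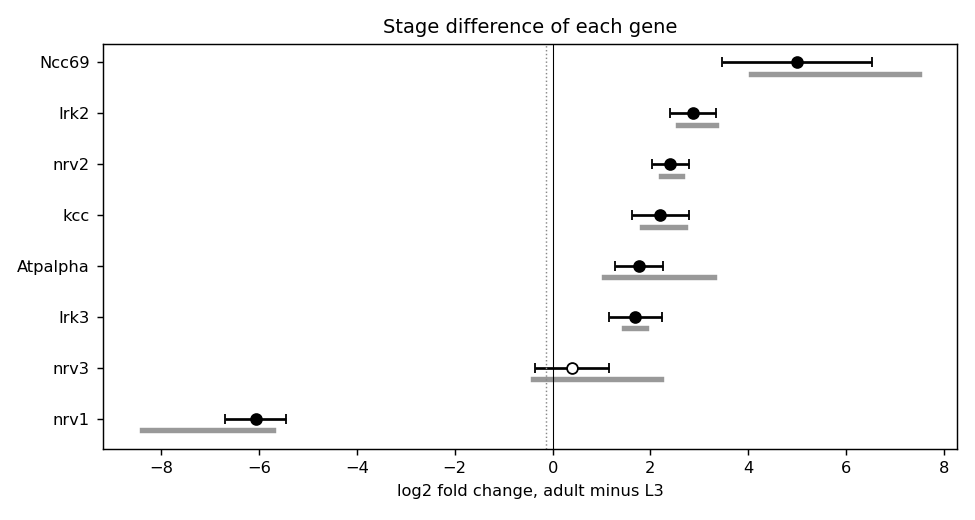
Log2 fold change, adult minus L3, of each gene from edgeR with its SE (black; filled where the adjusted p was under 0.05), and below it in grey the range over the alternative settings in which the gene was tested. The dotted line marks the median of all tested genes at -0.14; nrv3 has an open point and a range that crosses 0.

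Ncc69 and kcc encode cation-chloride cotransporters of opposite effect. Ncc69 brings sodium, potassium and chloride into the cell, and in fly larvae its loss lets fluid gather in peripheral nerves. It had 5.01, 8.05, 29.6 and 24.8 CPM in the adult libraries, from 6, 6, 27 and 32 counts. It had 0 and 1.04 CPM in the L3 libraries, from 0 and 2 counts, and the 0 in L3 library 1 allows up to 1.14 CPM. All adult libraries lay above both L3 libraries, with adult libraries 1 and 2 lower than libraries 3 and 4. The means were 16.9 ± 12.2 CPM in adult (SD, n = 4) and 0.520 ± 0.735 CPM in L3 (SD, n = 2).

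With 71 counts in adult against 2 in L3, the ratio of pooled counts for Ncc69 was 39.1, with a 95% counting interval of 10.4 to 329. The edgeR adjusted p was 0.0218. It was 0.193 without L3 library 1 and 0.0799 without L3 library 2, and without adult library 4 the gene did not pass the filter. With limma-voom the adjusted p was 0.0536, and with the earlier quasi-likelihood method 0.0984.

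kcc encodes the potassium-chloride cotransporter that carries both ions out of the cell. It had 68.5, 30.9, 55.9 and 71.4 CPM in the adult libraries, against 7.95 and 18.2 CPM in the L3 libraries, and SERCA had the same counts. The stages did not overlap. The means were 56.7 ± 18.5 CPM in adult (SD, n = 4) and 13.1 ± 7.25 CPM in L3 (SD, n = 2). This was a log2 fold change of 2.20 (SE 0.59, edgeR adjusted p = 0.00975). Without L3 library 1 it was 1.83 (adjusted p = 0.151), and the earlier quasi-likelihood method gave an adjusted p of 0.0565.

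The log2 ratio of Ncc69 to kcc counts averaged -1.98 ± 1.19 in adult (SD, n = 4) and -4.63 ± 1.13 in L3 (SD, n = 2). The difference of 2.64 had an exact permutation p of 0.0667, again the smallest possible, and 0.0889 after adjustment. Adult library 1, at -3.67, lay close to L3 library 2, at -3.83, so the stages were barely apart. The difference depended on the added count: it was 2.09 with 1 added (exact permutation p = 0.133) and 0.81 with 5 added (exact permutation p = 0.333). The ratio could as well be one of Ncc69 to SERCA.

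Irk2 and Irk3 encode inwardly rectifying potassium channels. Irk2 had 168, 118, 149 and 131 CPM in the adult libraries, against 21.2 and 15.6 CPM in the L3 libraries. The stages were far apart, and the adult values lay within 1.42-fold of each other, the narrowest adult range of the 7 genes with counts in all adult libraries. The means were 142 ± 21.6 CPM in adult (SD, n = 4) and 18.4 ± 3.96 CPM in L3 (SD, n = 2). The log2 fold change was 2.88 (SE 0.47, edgeR adjusted p = 0.000117), and it was called under all 16 alternatives, at 2.57 to 3.33. CG34289 had nearly the same counts.

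Irk3 had 91.0, 36.2, 46.0 and 74.5 CPM in the adult libraries, against 15.1 and 25.0 CPM in the L3 libraries, and Grip71 had the same counts. The stages did not overlap. The means were 62.0 ± 25.3 CPM in adult (SD, n = 4) and 20.1 ± 6.94 CPM in L3 (SD, n = 2). The log2 fold change was 1.69 (SE 0.54, edgeR adjusted p = 0.0270). Leaving out L3 library 1 ended the call (adjusted p = 0.220), and so did leaving out L3 library 2 (adjusted p = 0.0868). Its adjusted p was 0.0933 when adult library 1 was dropped and 0.0672 when adult library 4 was dropped. DESeq2 gave an adjusted p of 0.0567 and the earlier quasi-likelihood method 0.110.

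The log2 ratio of Irk2 to Irk3 counts averaged 1.27 ± 0.48 in adult (SD, n = 4) and -0.09 ± 0.81 in L3 (SD, n = 2). The difference of 1.36 had an exact permutation p of 0.0667 and an adjusted value of 0.0889. It was 0.79 without L3 library 2 and 1.93 without L3 library 1. Both genes share counts, so the ratio could as well be one of CG34289 to Grip71. Over the 8 genes, stages did not overlap in 6, against 37.7% of all tested genes.

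Related genes were counted in 4 lists, to be read beside the 9.65% of all tested genes called higher and the 13.1% called lower. Among the 4 sodium pump paralogues in the table, CG5250 and CG11703 were higher in adult, with identical counts, and they make 1 result and not 2 (39.8 ± 31.7 CPM in adult and 4.42 ± 5.52 in L3, log2 fold change 2.76, edgeR adjusted p = 0.0416). DESeq2 did not call it, and the call was also lost on leaving out either L3 library, or adult library 2 or 3. JYalpha and CG33310, the other paralogues, had too few counts for a test. JYalpha, a copy of the alpha subunit gene, was at 1.16 ± 2.33 CPM in adult and 1.21 ± 0.971 CPM in L3.

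Among 8 genes of chloride cotransport, its kinases and chloride channels, 3 were higher in adult and 0 lower. For all tested genes these shares were 9.65% and 13.1%. The kinase gene fray, whose product in the fly acts on Ncc69 and is needed in the glia of peripheral nerves, was at 165 ± 103 CPM in adult and 18.8 ± 3.57 CPM in L3 (log2 fold change 3.17, edgeR adjusted p = 0.000439). Wnk, the kinase that acts on Fray, was at 181 ± 96.1 CPM in adult and 74.2 ± 31.1 CPM in L3 (log2 fold change 1.27, adjusted p = 0.0480), with counts shared with CG33290. Mo25, a scaffold protein for kinases of this type, was also higher, with nearly the counts of Abl. The further cotransporter genes CG31547 and CG10413 were at 37.9 and 22.4 CPM in adult against 52.0 and 34.1 CPM in L3, and neither was called. Over the list the median log2 fold change was 0.82. Leaving out adult library 2 left 1 gene of the list called higher, against 8.84% of all tested genes in that fit. Fewer genes of the list were also called without either L3 library, and the share of all tested genes called higher fell too.

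Of 18 tested potassium channel genes out of 24 in the table, 6 were higher in adult and 0 lower, with a median log2 fold change of 1.47. Over all tested genes 9.65% were higher and 13.1% lower. KCNQ, a voltage-gated channel of slow kinetics, had 1309 ± 294 CPM in adult and 10.3 ± 0.127 CPM in L3 (log2 fold change 6.94, edgeR adjusted p = 1.43e-08). Its counts were nearly those of mlt and could belong to either gene. The calcium-activated channel slo was at 13.3 ± 7.90 CPM in adult and 0.379 ± 0.535 CPM in L3, where it had 2 counts or fewer per library. Shaw, a voltage-gated channel, and Ork1, an open-rectifier leak channel, were also higher, as were CG9194 and CG10864, which share counts with neighbours. Irk1, the third inward rectifier, was at 233 ± 30.8 CPM in adult and 131 ± 34.1 CPM in L3 and was not called (log2 fold change 0.83, adjusted p = 0.0830). Without adult library 1, 3 of 15 tested channels were called higher, against 8.77% of all tested genes in that fit. The number of channels called also fell without either L3 library, as did the share of all tested genes called higher.

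Septate junctions, the sealing junctions of insect epithelia and glial sheaths, contain Atpalpha and nrv2. Of 18 tested genes of these junctions 3 were higher in adult and 1 was lower, with a median log2 fold change of -0.78. Among all tested genes such calls made up 9.65% and 13.1%, with a median of -0.14. The claudin gene sinu was at 24552 ± 5343 CPM in adult and 3967 ± 771 CPM in L3 (log2 fold change 2.62, edgeR adjusted p = 3.89e-05), with nearly the counts of its neighbours Sucb and Msr-110. scrib, a polarity gene, and cold were higher with counts of their own. vari, a membrane-associated scaffold gene, was at 64.1 ± 23.1 CPM in adult and 156 ± 24.2 CPM in L3 (log2 fold change -1.39, adjusted p = 0.0161), with nearly the counts of Pomp. Nrx-IV and Cont, adhesion molecules of the junction, were at 22.8 and 39.9 CPM in adult against 46.6 and 58.7 CPM in L3, and neither was called. Without L3 library 1 fewer genes of the list were called, as were fewer of all tested genes. The call of vari was lost in that fit, and also without adult library 1 or 4.

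**Figure D5:**
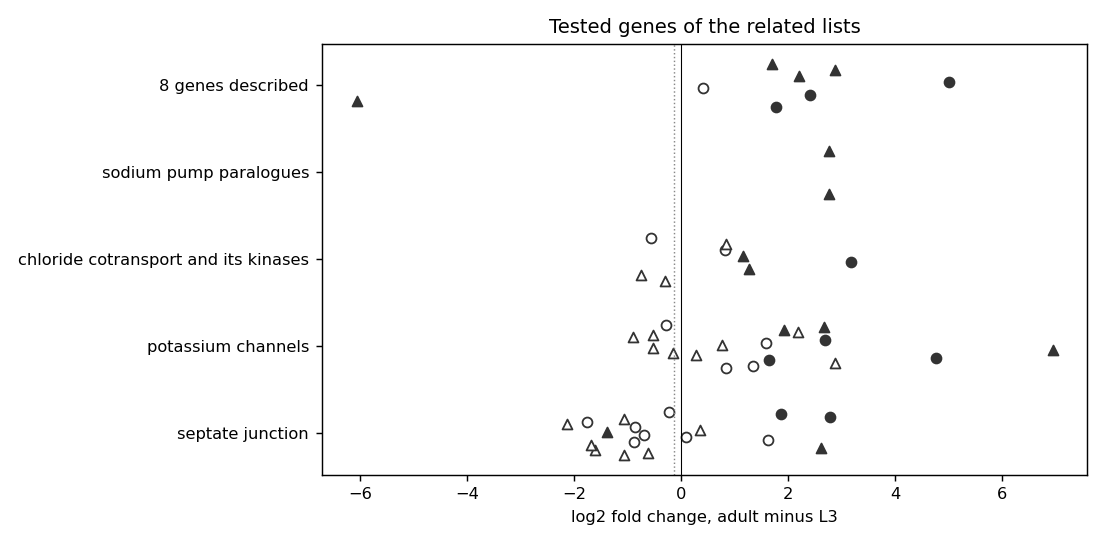
Log2 fold change, adult minus L3, of the 8 genes and of each tested gene in the 4 related lists. Filled symbols had an edgeR adjusted p under 0.05, triangles share counts with a neighbouring row, and the dotted line is the median of all tested genes; nrv1 and vari are the filled symbols left of 0.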

How the data were processed

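Per the labels' protocols, flies were reared at 25 °C and dissected brains were digested at 29 °C for 30 min (adult) or 15 min (larval), so enzyme time differed with stage. Sorted cells gave 3′ end libraries by a MARS-seq derivative with amplification by in vitro transcription. The authors deposited whole-number counts per gene symbol, 1 column for each of 6 libraries, without normalization. All sample columns were used. The submitters' processing notes name bcl2fastq, HISAT 0.1.5 and HOMER. Genome build, annotation, strand use and collapse of molecular identifiers are not given there or in the labels. A RefSeq gene table of Release 6 plus ISO1 MT served for synonyms, through which 5 list genes were matched, and 1 symbol had no match.

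The test was edgeR 4.0.16 in R 4.3.3 on the whole table, with TMM scaling, filterByExpr by stage and Benjamini-Hochberg adjustment over 9082 genes. SE is the absolute log2 fold change over the square root of F. Alternatives used DESeq2 1.42.0 and limma-voom (limma 3.58.1). Rows up to 10 apart were said to share counts when, with 30 or more counts each, their difference came to less than 5% of their sum. The test was run on simulated data, without shared counts, only to check that it recovered large changes in the right direction. No limit was set there on false calls.

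The members and lists were chosen with earlier results of these data known. Named genes are the members, the called gene with the lowest adjusted p per direction in each related list, the most abundant marker of each list, alrm, genes whose counts resemble a member's and the 3 genes most like Atpalpha. Other genes of a list, nSyb, elav and Gad1 among them, were named after their values were seen. Cell type marker lists were astrocyte, pan-glial, cortex, ensheathing and surface glia, neuron, photoreceptor, hemocyte and muscle.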

Additional observations from a re-analysis of the deposited data

Results flagged for a closer look

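nrv1 in adult library 4 had 7.76 CPM, far from 0 to 1.10 CPM in the other 3 adult libraries, a gap of 0.859 of their range where 0.829 is Dixon's 95% limit for 4 libraries. It was the single flag among 12 values examined, and chance flags about 1 in 20. The value rests on 10 counts.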

How the results depend on the processing

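nrv1, nrv2 and Irk2 kept their direction and their call under every alternative run: other scalings, tools and filters, 1 row per group of shared counts, the replicate block and each library left out. RLE scaling and the stricter filter changed no call of the 8 genes and no count of the lists. Upper quartile scaling changed 1 of these, with 2 chloride genes higher in place of 3. The causes of the changes below were not tested, beyond the fewer libraries or rows that some settings use.

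The earlier quasi-likelihood method ended the calls of Atpalpha, Ncc69, kcc and Irk3 at log2 fold changes of 1.75, 4.94, 2.14 and 1.63, leaving 2 of the 8 genes higher. It left 0 pump paralogues, 1 chloride gene, 2 potassium channels and 2 septate junction genes higher and 0 septate junction genes lower. limma-voom ended the call of Ncc69 at 4.78. It had 0 paralogues, 2 chloride genes, 3 channels and 2 junction genes higher and 2 junction genes lower. DESeq2 ended the call of Irk3 at 1.65, with 0 paralogues, 2 chloride genes and 5 channels higher and 0 junction genes lower. Without the filter on low counts 0 paralogues, 2 chloride genes, 4 channels and 2 junction genes were higher. With 1 row per group of shared counts fewer rows were tested. In that fit 1 paralogue, 1 chloride gene and 5 channels were higher and 0 junction genes lower.

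The labels number libraries 1 and 2 in both stages, but nothing says that a number marks a shared source. Deviations of same-numbered libraries from their stage means correlated at -0.00327 and 0.0212 over genes, so the numbers were not taken to pair them. With the replicate block on these 4 libraries, Atpalpha, kcc and Irk3 were not called at 2.15, 2.01 and 1.69, and 2 of the 8 genes were higher. The block gave 0 paralogues, 0 chloride genes, 3 channels and 1 junction gene higher and 0 junction genes lower. The same 4 libraries without it gave 3 of the 8 genes higher, with kcc at 2.05, Irk3 at 1.77 and nrv3 at -0.07. Ncc69 did not pass the filter in these fits.

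With each library left out in turn, log2 fold changes ran over 1.06 to 3.29 for Atpalpha, -0.40 to 2.21 for nrv3, 4.05 to 7.48 for Ncc69, 1.83 to 2.70 for kcc and 1.46 to 1.91 for Irk3. Those for nrv3 were -0.40 without L3 library 1 and -0.21 without adult library 4. The number of the 8 genes called higher ran from 2 to 6, paralogues 0 to 2, chloride genes 1 to 3, channels 2 to 9 and junction genes 1 to 3, with 0 to 1 junction genes lower. Fits with 1 L3 library take its spread from the adult libraries.

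The share of all tested genes called higher, 9.65%, was 5.74% with the earlier quasi-likelihood method, 3.46% with the block, 4.04% without L3 library 1 and 6.14% without L3 library 2. With 1 and 5 added to the counts, the ratio differences kept their sign, at 8.66 and 7.19 for nrv2 to nrv1, 1.85 and 1.74 for nrv2 to nrv3, 2.09 and 0.81 for Ncc69 to kcc, and 1.35 and 1.27 for Irk2 to Irk3. Depth limits most the values of Ncc69 in L3, from 2 counts, and of nrv1 in adult, from 12 counts.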
